A study of Caenorhabditis elegans with 12 samples.

Results

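The 9 genes described here, hsp-12.1, hsp-12.2, hsp-12.3, hsp-12.6, hsp-16.20, hsp-16.41, hsp-25, hsp-43 and sip-1, encode small heat shock proteins of Caenorhabditis elegans. Each has a probe set on an Affymetrix C. elegans array annotated to that gene alone, and they stand among 17118 genes with such a probe set. The 9 are a chosen list and not the whole family. A further 5 small heat shock protein genes, hsp-17 among them, also have such a probe set and are not counted as members. A gene with several probe sets is represented by the one with the highest mean, which matters for sip-1 alone, since it has 2 and each other member has 1. Whole worms of wild-type strain N2 were measured in 4 groups of 3 arrays: fed hermaphrodites, fasted hermaphrodites, fed males and fasted males. All 4 groups were grown at 20 C, received FUdR (5-fluoro-2'-deoxyuridine, which blocks DNA synthesis and keeps progeny from hatching) at 200 ug/ml from the young adult stage, and were collected on day 4 of adulthood. The fasted groups had no food for 48 h from day 2, while the fed groups ate ad libitum. Hermaphrodites make sperm and then oocytes, and males make sperm only, so the sexes differ in germline content as well as in somatic tissue.

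Small heat shock proteins share an alpha-crystallin domain and act without ATP, holding unfolding proteins until ATP-dependent chaperones such as HSP70 refold them. In C. elegans the HSP-16 proteins are the heat-inducible members, under the control of the heat shock factor HSF-1, and several small heat shock protein genes are also targets of DAF-16, the FOXO factor that insulin signalling restrains and that is active when food is scarce. The HSP-12 proteins are unusually short members of the family, SIP-1 is a member of oocytes and embryos, and HSP-25 sits at the dense bodies and M-lines of body wall muscle.

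Levels below are the deposited log2 signals, and differences are on the same log2 scale, given with an SD or a standard error (SE) from groups of n = 3 arrays. A difference was called where its adjusted p fell under 0.05 in a limma fit across 15913 probe sets (Benjamini-Hochberg). Pairs named below join a fed and a fasted array with the same replicate number. The sample titles do not state such a match, and the main fit was not paired. All 9 members entered that fit by reaching, on 3 arrays or more, a log2 signal over 6.01, which is the 40th percentile of all deposited values. For hsp-12.6 only fasted arrays met the filter and for hsp-12.1 only male arrays, so for these genes the filter itself selected the high groups. The sex labels held in the data: fed hermaphrodites had 14.09 ± 0.16 (SD) for vit-2, a yolk protein gene, against 7.38 ± 0.71 for fed males. For lov-1, a gene of male sensory neurons, they had 3.45 ± 2.65 against 7.74 ± 0.13. In whole worms, fewer cells of a type and less RNA per cell cannot be told apart.

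With fasting, both sexes had more hsp-12.6 and hsp-12.3 signal, hsp-16.20, hsp-16.41 and sip-1 rose in males, hsp-43 fell in both sexes and hsp-25 fell in males. Of the members called in males alone, only sip-1 was also called for a difference between the responses of the sexes. For hsp-16.20, hsp-16.41 and hsp-25 that difference was not called. In hermaphrodites 3 of the 9 members were called, 2 higher and 1 lower, where 11.4% of all tested probe sets were called (5.72% higher and 5.69% lower). In males 7 of the 9 were called, 5 higher and 2 lower, where 27.3% of all were called (19% higher and 8.31% lower). The counts of both sexes include hsp-12.6, which passed the filter on fasted arrays only. The members' changes ran from -1.38 to 6.58 in hermaphrodites, with a median of 0.92 against 0.09 for all probe sets. In males they ran from -1.71 to 6.36, with a median of 0.99 against 0.23 for all. The members and the lists below were chosen with earlier results of these data known, so such counts and medians are descriptions.

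**Figure D1:**
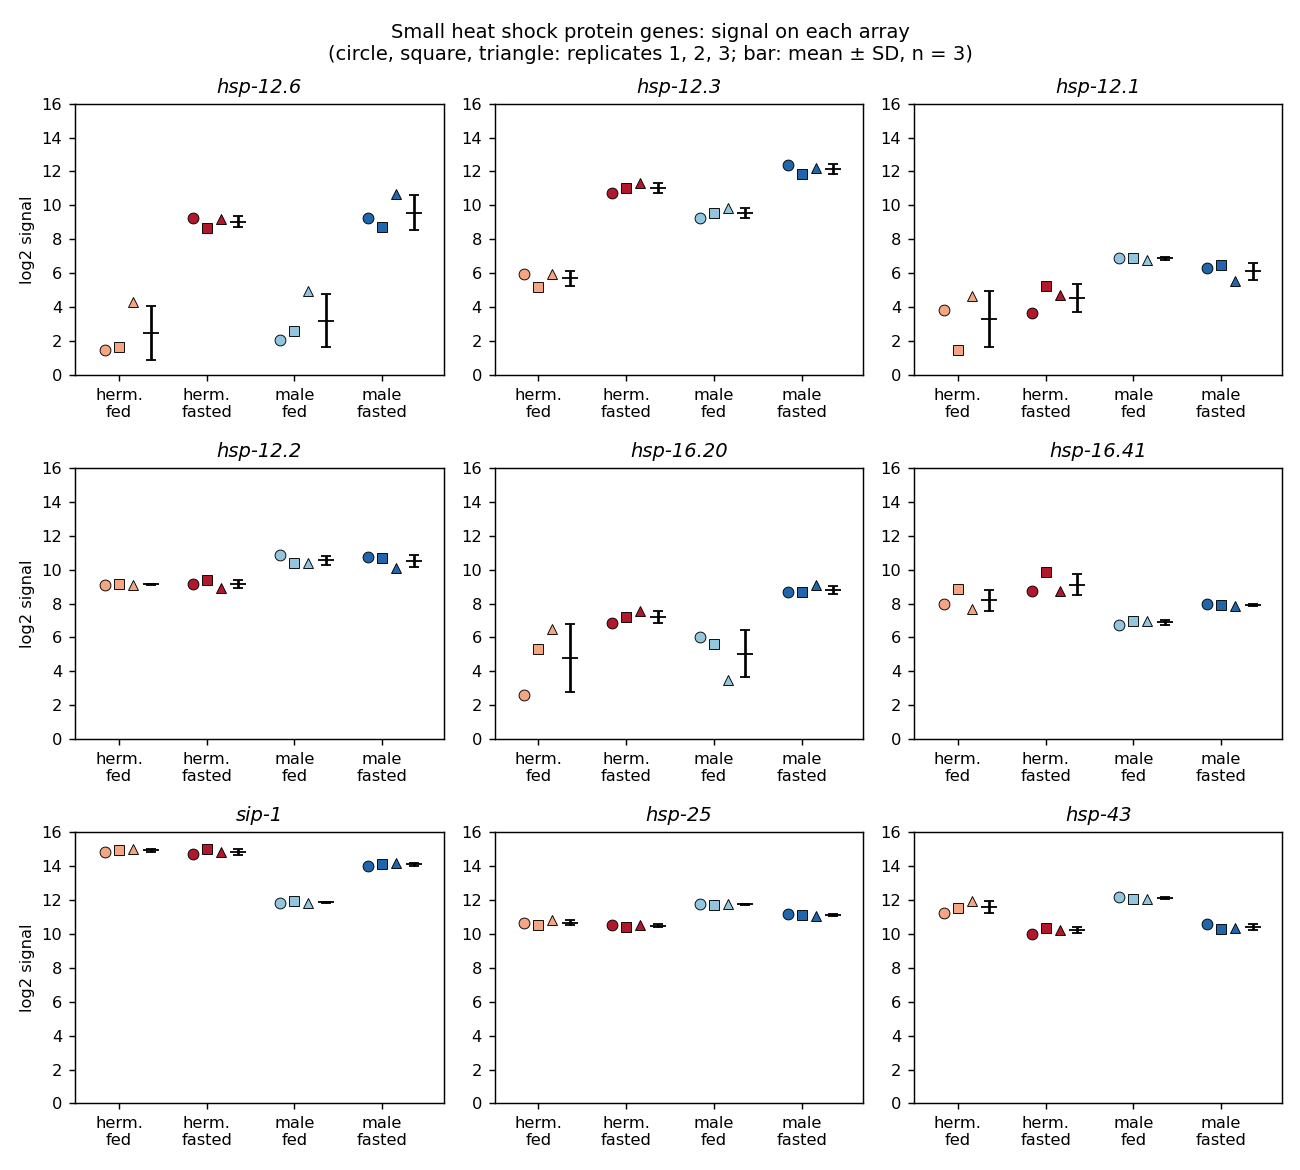
Log2 signal (vertical axes, 0 to 16) of the 9 small heat shock protein genes on each of the 12 arrays, with the 4 groups along the horizontal axes, a symbol for each replicate and bars for mean ± SD (n = 3). For hsp-12.6 every fasted array lies above every fed array of either sex, while for hsp-12.2 the groups separate by sex only.

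On the scale as deposited the largest rise belonged to hsp-12.6, a short family member known as a DAF-16 target that supports the long life of insulin receptor mutants. Its fed hermaphrodite arrays read 1.45, 1.62 and 4.32, and the fasted ones 9.28, 8.65 and 9.20. Fed males read 2.07, 2.56 and 4.96, and fasted males 9.28, 8.72 and 10.70. Every fasted array stood at least at 8.65 and every fed array at or below 4.96, and replicate 3 was the highest of the fed arrays in both sexes. The rise was 6.58 ± 0.85 (SE) in hermaphrodites (limma adjusted p = 2.33e-04) and 6.36 ± 0.85 in males (adjusted p = 2.05e-04), higher in 3 of 3 replicate pairs in each sex. Only fasted arrays carried hsp-12.6 through the filter, so these p values are not free of that selection. The responses of the sexes differed by -0.21, with a 95% interval from -2.81 to 2.39 (adjusted p = 0.948), an interval wide enough to hold large differences in either direction. Fed signals lay near the bottom of the scale, so the size of the rise depends on the floor. With a pseudocount at the 20th percentile of the signal it was 4.31 in hermaphrodites and 4.62 in males, and with one at the 40th percentile 3.03 and 3.42. With the latter the rise of hsp-12.3 in hermaphrodites, 4.18, was larger.

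The neighbouring gene hsp-12.3, which lies next to hsp-12.6 on chromosome IV in the RefSeq gene order, rose less in males than in hermaphrodites. Fed hermaphrodites read 5.98, 5.18 and 5.94, and fasted ones 10.73, 10.996 and 11.31. Fed males already read 9.25, 9.54 and 9.86, and fasted males 12.40, 11.86 and 12.18. No groups overlapped, and the order from low to high was fed hermaphrodites, fed males, fasted hermaphrodites and fasted males. The rise was 5.31 ± 0.24 (SE) in hermaphrodites (adjusted p = 1.69e-07), 39.7-fold, and 2.60 ± 0.24 in males (adjusted p = 1.42e-05), 6.04-fold. The difference of the responses, male minus hermaphrodite, was -2.72 ± 0.34 (adjusted p = 0.00183), where 5.28% of all probe sets were called in that comparison (3.82% higher and 1.46% lower). It was 1 of 2 members called there, with sip-1, 1 in each direction. No fed hermaphrodite array of hsp-12.3 was above the filter's threshold, and its values depend on the floor: with the pseudocount at the 40th percentile the rise was 4.18 in hermaphrodites and 2.49 in males, and the difference of the responses -1.68 (adjusted p = 0.00272). In fed worms hsp-12.3 was higher in males by 3.85 ± 0.24 (adjusted p = 2.44e-08), and in fasted worms by 1.13 ± 0.24 (adjusted p = 0.00108). The other gene beside this pair with a tested probe set, F38E11.9, changed by 0.23 ± 0.17 in hermaphrodites (adjusted p = 0.464) and by 0.11 ± 0.17 in males (adjusted p = 0.705).

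The remaining short members, hsp-12.1 and hsp-12.2, were not called for fasting in either sex. For hsp-12.2, fed hermaphrodites read 9.11, 9.18 and 9.10 and fasted ones 9.13, 9.39 and 8.92. Fed males read 10.84, 10.39 and 10.38 and fasted males 10.75, 10.70 and 10.08. Within each sex the fed and fasted arrays overlapped, and every male array lay above every hermaphrodite array. The change was 0.02 in hermaphrodites (95% interval -0.40 to 0.44, adjusted p = 0.968) and -0.03 in males (-0.45 to 0.39, adjusted p = 0.929). For hsp-12.1 the hermaphrodite arrays ranged from 1.46 to 5.23 over both feeding states, and the male arrays from 5.52 to 6.90. Its change with fasting was 1.22 in hermaphrodites (95% interval -0.30 to 2.74, adjusted p = 0.313) and -0.76 in males (-2.28 to 0.76, adjusted p = 0.474), intervals that leave room for sizeable changes. The fed and fasted males did not overlap. The hermaphrodite value of hsp-12.1 was pulled by fed replicate 2, at 1.46, whose pair differed by 3.76 while the other pairs differed by -0.17 and 0.06.

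**Figure D2:**
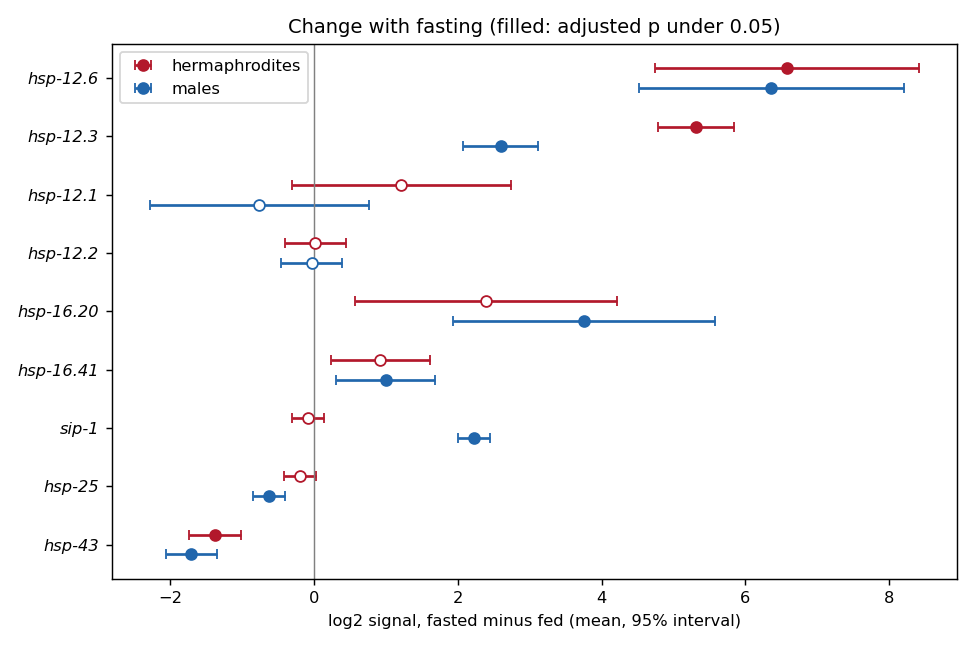
Change of each member with fasting on the log2 scale (horizontal axis, fasted minus fed) in hermaphrodites and in males, as the fitted mean with its 95% interval. Filled points have an adjusted p under 0.05. The hsp-12.3 interval lies higher in hermaphrodites (4.79 to 5.84) than in males (2.07 to 3.12), and the sip-1 interval spans 0 in hermaphrodites and lies at 2.01 to 2.45 in males.

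Of the HSP-16 members, hsp-16.20 rose in males. Fed males read 6.05, 5.61 and 3.47 and fasted males 8.65, 8.66 and 9.07, with no overlap. Fed hermaphrodites read 2.58, 5.34 and 6.48 and fasted ones 6.84, 7.19 and 7.56, where the highest fed array came close to the lowest fasted one without reaching it. The fed arrays were scattered in both sexes and the fasted arrays were tight. The rise was 3.75 ± 0.84 (SE) in males (adjusted p = 0.00568), 3 of 3 pairs, and 2.29 with a pseudocount at the 40th percentile. In hermaphrodites the change was 2.40 ± 0.84 (adjusted p = 0.0915), positive in 3 of 3 pairs but not called. It was called without fed replicate 3 (3.24, adjusted p = 0.0261), with array weights (2.98, 0.03), and with the lower pseudocount (1.58, 0.0351) or the higher one (1.02, 0.0183). The difference between the sexes was 1.36, with a 95% interval from -1.22 to 3.93 (adjusted p = 0.556), and with the pseudocount at the 40th percentile it was 1.27 (adjusted p = 0.0496).

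The change of hsp-16.41, a member of the heat-inducible HSP-16 group, was small in both sexes and stood near the threshold. Fed hermaphrodites read 8.001, 8.87 and 7.70 and fasted ones 8.75, 9.84 and 8.75, so the groups overlapped, with replicate 2 highest in each. Fed males read 6.74, 6.998 and 6.99 and fasted males 7.95, 7.90 and 7.86, with no overlap. Each of the 3 pairs was higher after fasting in both sexes. The rise in males was 0.99 ± 0.32 (SE; adjusted p = 0.0343), or 0.76 above the median change of all probe sets. That call ended after median centring (0.81, adjusted p = 0.0634), without the variance trend (0.0504) and without any 1 of the 6 male arrays (adjusted p from 0.0621 to 0.1). In hermaphrodites the change was 0.92 ± 0.32 (adjusted p = 0.0857), and it was called with a replicate block (adjusted p = 0.0301) and without fed replicate 2 (1.26, adjusted p = 0.0191). The responses of the sexes differed by 0.07, with an interval from -0.90 to 1.04 (adjusted p = 0.955).

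Next to hsp-16.41 on chromosome V lies hsp-16.2, another heat-inducible HSP-16 gene, and both followed each other from array to array. Pearson's r between their log2 values was 0.95 over the 12 arrays, and 0.91 after the mean of each sex was taken away, on arrays that share group and scaling. Hsp-16.2 rose by 1.16 ± 0.31 (SE) in hermaphrodites (adjusted p = 0.0311; 0.055 after quantile normalization) and changed by 0.59 ± 0.31 in males (adjusted p = 0.192). The gene beside hsp-16.20, hsp-16.21, belongs to the same group and did not pass the filter on low values, with group means between 3.21 and 5.03. The HSP-16 genes are close copies of each other, and how far their probes take up each other's RNA was not tested.

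The gene sip-1, whose protein in oocytes and embryos prevents aggregation best at low pH, rose in fasted males and was not called in fasted hermaphrodites. Fed males read 11.84, 11.92 and 11.85, and fasted males 14.02, 14.10 and 14.17. Fed hermaphrodites read 14.84, 14.92 and 15.02, and fasted ones 14.70, 15.02 and 14.81. The male groups lay far apart with little scatter, and the hermaphrodite groups overlapped above both. The rise in males was 2.23 ± 0.10 (SE; adjusted p = 8.59e-08), 4.69-fold, against a change of -0.08 in hermaphrodites (95% interval -0.31 to 0.14, adjusted p = 0.668). The difference of the responses was 2.31 ± 0.14 (adjusted p = 2.34e-05). The second sip-1 probe set gave 2.42 ± 0.14 in males, -0.05 ± 0.14 in hermaphrodites and a difference of 2.47 ± 0.20 (adjusted p = 1.19e-04).

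In hermaphrodites sip-1 lay 0.02 to 0.26 below the highest value of any probe set on its array, in fed males 3.26 to 3.75 below it and in fasted males 1.09 to 1.31 below it. On fasted hermaphrodite replicate 2 the highest value, 15.10, was that of the second sip-1 probe set itself. The signal in hermaphrodites was therefore near the top of the scale, and whether it could have shown a rise there was not tested. Because sip-1 is known as a gene of oocytes and embryos, the markers of these cells were read on the same arrays. The sip-1 signal was also high in males, which make sperm only, at percentile 95.6 of all probe sets in fed and 99.1 in fasted males. Of 14 oocyte and maternal markers 5 rose and 2 fell in fasted males, with a list median of 0.45 against 0.23 for all probe sets (3 rose after median centring or quantile normalization). For the difference of the responses, the comparison in which sip-1 was called, 3 markers were higher and 1 lower. Of all probe sets 3.82% were higher and 1.46% lower there. An unadjusted p under 0.05, counted over both directions, was found for 13 of the 14 markers. The list median was 0.63 against 0.11 for all, positive as for sip-1. The part of these markers in the sip-1 values was not tested. Their summed signal on the log2 scale was 13.21 to 13.63 in fed males and 12.69 to 13.19 in fasted males, and 17.11 to 17.30 on the hermaphrodite arrays. None of the markers was at 0 on any array. The yolk gene vit-2 changed by -0.22 ± 0.28 (SE) in males (adjusted p = 0.618).

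**Figure D3:**
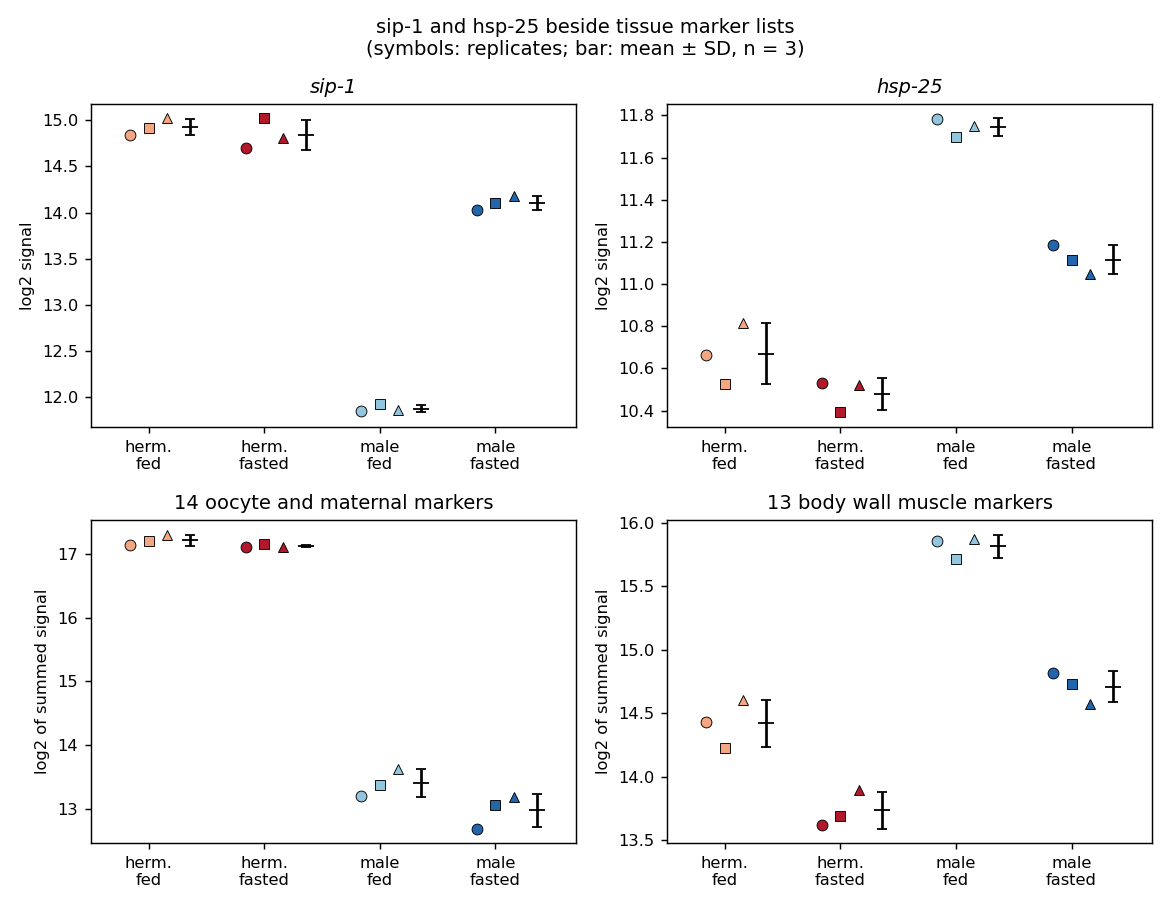
Log2 signal of sip-1 and hsp-25 (upper panels) above the log2 of the summed signal of 14 oocyte and maternal markers and of 13 body wall muscle markers (lower panels), for each array by group, with bars for mean ± SD (n = 3) and vertical axes that do not start at 0. In males sip-1 was higher after fasting and the summed oocyte markers, a sum that the most abundant genes weigh most in, ranged from 12.69 to 13.19 against 13.21 to 13.63 in fed males, while hsp-25 and the summed muscle markers were both lower after fasting.

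The larger members hsp-25 and hsp-43 moved the other way. For hsp-43, fed hermaphrodites read 11.25, 11.54 and 11.95 and fasted ones 10.02, 10.37 and 10.22. Fed males read 12.19, 12.06 and 12.06 and fasted males 10.58, 10.30 and 10.32. The fed and fasted arrays did not overlap in either sex. The gene fell by 1.38 on the log2 scale in hermaphrodites (SE 0.17, adjusted p = 1.36e-04) and by 1.71 in males (SE 0.17, adjusted p = 1.93e-05), which left 0.38 and 0.31 of the fed signal. The responses differed by -0.33, with an interval from -0.84 to 0.18 (adjusted p = 0.456).

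The muscle gene hsp-25 fell in males. Fed males read 11.78, 11.70 and 11.75 and fasted males 11.18, 11.12 and 11.05, with no overlap. Fed hermaphrodites read 10.67, 10.53 and 10.82, and fasted ones 10.53, 10.39 and 10.52. In hermaphrodites the groups met at 10.53, and each of the 3 pairs was lower after fasting. The change was -0.63 ± 0.10 (SE) in males (adjusted p = 8.33e-04) and -0.19 ± 0.10 in hermaphrodites (95% interval -0.41 to 0.03, adjusted p = 0.281). The difference of the responses was -0.44 ± 0.15 (adjusted p = 0.0977; 0.0529 with a replicate block) and was not called.

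Although hsp-25 was called lower in males alone, the difference of its responses between the sexes was not called. Many body wall muscle markers fell in both sexes. Of 13 such genes 9 fell and none rose in males, with a list median of -1.01, and 7 fell and none rose in hermaphrodites, with a median of -0.59 (11 and 9 had an unadjusted p under 0.05). Their summed log2 signal was 15.71 to 15.88 in fed males and 14.58 to 14.81 in fasted males, and 14.22 to 14.60 in fed and 13.62 to 13.90 in fasted hermaphrodites. Of 12 intestine markers 8 fell and 1 rose in hermaphrodites and 5 fell and 1 rose in males, while of 9 hypodermis markers 3 fell in hermaphrodites and 5 in males and none rose. Of 12 neuron markers 2 rose in hermaphrodites and none was called in males (3 at an unadjusted p under 0.05), and of 10 sperm markers 2 fell in hermaphrodites and 1 rose in males. The neuron and sperm counts depended on the scaling. In hermaphrodites no neuron marker was called after quantile normalization and no sperm marker on hybridization controls. In males no sperm marker was called after quantile normalization or median centring. Of all probe sets 5.72% rose and 5.69% fell in hermaphrodites, and 19% rose and 8.31% fell in males. The part of these marker changes in the members' values was not tested.

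Between the sexes, sip-1 and hsp-16.41 were lower in males, and hsp-12.1, hsp-12.2, hsp-12.3, hsp-25 and hsp-43 were higher in fed males. In fed worms 7 of the 9 members were called, 5 higher and 2 lower in males, where 74.8% of all probe sets were called (38.9% higher and 35.9% lower). The 5 include hsp-12.1, which passed the filter on male arrays only. In fasted worms 5 were called, 3 higher and 2 lower, where 70.7% of all were called (38% and 32.7%). The share of members called in either direction was near the background in fed worms and below it in fasted worms. The median sex difference of all probe sets was 0.13 in fed and 0.12 in fasted worms, and after median centring -0.41 and -0.50, so small sex differences depend on the scale.

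**Figure D4:**
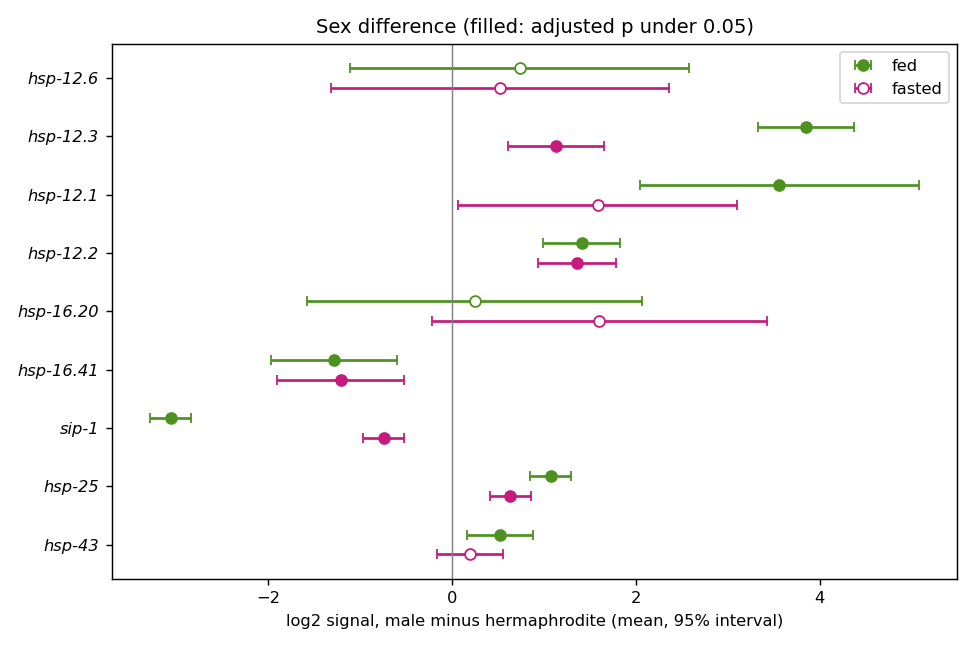
Sex difference of each member on the log2 scale (horizontal axis, male minus hermaphrodite) in fed and in fasted worms, as the fitted mean with its 95% interval. Filled points have an adjusted p under 0.05. The distance of hsp-12.3 and sip-1 from 0 is 3.85 and -3.06 in fed worms and 1.13 and -0.74 in fasted worms.

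For sip-1 the sex difference was -3.06 ± 0.10 (SE) in fed worms (adjusted p = 1.17e-10) and -0.74 ± 0.10 in fasted worms (adjusted p = 3.20e-05), both against a hermaphrodite signal near the top of the scale. For hsp-16.41 it was -1.28 ± 0.32 in fed (adjusted p = 0.00276) and -1.21 ± 0.32 in fasted worms (adjusted p = 0.00431). Both genes were lower in males in both feeding states, and the neighbour hsp-16.2 was too, by -0.90 ± 0.31 (adjusted p = 0.0201) and -1.47 ± 0.31 (adjusted p = 0.00108). The 14 oocyte and maternal markers were all called lower in males, with a median of -5.41 in fed worms, and their part in the sip-1 difference was not tested.

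For hsp-12.2 the difference was 1.41 ± 0.19 (SE) in fed (adjusted p = 2.77e-05) and 1.36 ± 0.19 in fasted worms (adjusted p = 4.26e-05). For hsp-12.1 it was 3.56 ± 0.70 in fed worms (adjusted p = 5.25e-04), and 1.22 with a pseudocount at the 40th percentile. Only male arrays carried hsp-12.1 through the filter, so this p value is not free of that selection. In fasted worms hsp-12.1 differed by 1.58 ± 0.70 (adjusted p = 0.059), and it was called without hermaphrodite fed replicate 2 (0.0083) or 3 (0.0343), without fasted replicate 2 (1.94, 0.0462) and in 4 further settings. The hsp-12.1 level in hermaphrodites was low and scattered. The hsp-12.2 arrays separated by sex, and within each sex the fed and fasted arrays overlapped.

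For hsp-25 the difference was 1.07 ± 0.10 (SE) in fed (adjusted p = 1.07e-06) and 0.64 ± 0.10 in fasted worms (adjusted p = 1.22e-04), and the fasted value was 0.01 after median centring (adjusted p = 0.948). Likewise that of hsp-12.3 in fasted worms was 0.51 after median centring (adjusted p = 0.0927). For hsp-43 the fed difference was 0.53 ± 0.17 (adjusted p = 0.012), and -0.01 after median centring. The hsp-43 call also ended after quantile normalization (0.40, adjusted p = 0.059), on hybridization controls (0.26, 0.171) and without hermaphrodite fed replicate 1 (0.36, 0.0632). In fasted worms hsp-43 differed by 0.20 (95% interval -0.16 to 0.56, adjusted p = 0.303), with -0.43 after median centring (adjusted p = 0.0403) and 0.43 after quantile normalization (adjusted p = 0.0466). The body wall muscle markers were all 13 higher in fed males and 9 of 13 higher in fasted males, beside hsp-25. After median centring 12 were higher in fed males, and in fasted males 5 were higher and 2 lower. The sexes differed in hsp-12.6 by 0.74 in fed worms (95% interval -1.10 to 2.58, adjusted p = 0.442) and 0.52 in fasted worms (-1.32 to 2.36, adjusted p = 0.595), and in hsp-16.20 by 0.25 (-1.57 to 2.07, adjusted p = 0.798) and 1.60 (-0.22 to 3.42, adjusted p = 0.104). The fasted difference of hsp-16.20 was called with the pseudocounts (1.48 and 1.26, adjusted p = 0.00917 and 5.02e-04), with only the fasted arrays (2.74e-04) and without hermaphrodite fed replicate 1 (0.023).

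Among themselves the members were compared by Pearson's r over the 6 arrays of each sex. Between hsp-12.3 and hsp-12.6 it was 0.96 in hermaphrodites and 0.97 in males, and between hsp-12.6 and hsp-43 -0.85 and -0.95. Between hsp-25 and sip-1 it was 0.16 in hermaphrodites and -0.99 in males, and between hsp-12.3 and sip-1 -0.34 and 0.98. Each sex's arrays hold both feeding states, and sip-1 and hsp-25 were both called for fasting in males and neither in hermaphrodites. The arrays share feeding state and scaling, and the values are descriptions.

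The genes most like each member were sought among 7501 tested genes with a locus name, by Pearson's r over the 12 arrays. Closest to hsp-12.3 were cyp-34A9, a cytochrome P450 gene (0.983), adh-1, an alcohol dehydrogenase gene (0.975), and the aquaporin gene aqp-1 (0.966). Closest to hsp-12.6 were nstp-4 (0.967), the mitochondrial transhydrogenase gene nnt-1 (0.958) and dct-1, a mitophagy receptor gene (0.958). With the mean of each sex taken away, hsp-12.3 was closest to cyp-34A9 (0.982), sulp-8 (0.979) and aakg-4 (0.970), and hsp-12.6 to the superoxide dismutase gene sod-4 (0.977), the calcineurin gene cnb-1 (0.974) and ncs-2 (0.973). Only cyp-34A9 stood on both lists for hsp-12.3, and the lists for hsp-12.6 shared no gene.

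For hsp-25 the closest genes were unc-15, which encodes the paramyosin of muscle thick filaments (0.992), elt-3 (0.982) and daf-22 (0.982), and with sex means removed cpn-3, a calponin-like gene (0.979), grd-5 (0.979) and unc-15 (0.968). For hsp-43 they were the aspartic protease gene asp-4 (0.991), the small heat shock protein gene hsp-17 (0.984) and ora-1 (0.975), and with sex means removed asp-4 (0.993), hsp-17 (0.986) and ugt-39 (0.984). For sip-1 they were mogs-1 (0.989), trul-1 (0.989) and hmg-3 (0.986), and with sex means removed clec-54 (0.981), pqn-59 (0.980) and rfth-1 (0.978). For hsp-16.41 they were the calnexin gene cnx-1 (0.970), rrf-2 (0.968) and cdc-42 (0.966), the same 3 as with sex means removed (0.933 to 0.939). For hsp-16.20 they were acs-21 (0.893), egl-1 (0.885) and miz-1 (0.882), and with sex means removed ari-1.3 (0.941), npp-6 (0.935) and npr-3 (0.932). All of these are the highest of many correlations, over arrays that share groups and scaling, and are given as descriptions.

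Other genes of the family and its network were counted beside the members. Of 9 further small heat shock protein genes 5 had a probe set of their own and 4 passed the filter. Of these 4, hsp-16.2 rose and hsp-17 fell in hermaphrodites, and hsp-17 and Y55F3BR.6 fell in males. Hsp-17 changed by -1.996 ± 0.17 (SE) in hermaphrodites (adjusted p = 9.08e-06) and by -2.30 ± 0.17 in males (adjusted p = 2.69e-06), and Y55F3BR.6 by -0.52 ± 0.15 in males (adjusted p = 0.018; 0.0675 on hybridization controls). The fall of hsp-17 was thus larger than that of hsp-43 in fitted value in both sexes, a difference between genes that was not tested.

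Of 14 ATP-dependent chaperone and co-chaperone genes of the cytosol, none was called in hermaphrodites (limma; 2 at an unadjusted p under 0.05), with a median of 0.09, equal to that of all probe sets. In males 7 rose and 1 fell, with a median of 0.46 against 0.23, and 3 rose after median centring. Of all probe sets 19% rose and 8.31% fell in males. The largest called rises were those of hsp-70, the heat-inducible HSP70 gene (0.99 ± 0.34, SE; adjusted p = 0.048), dnj-19, a DnaJ gene (0.79 ± 0.16, 0.00387), and hsp-90 (0.68 ± 0.12, 0.00133), and the fall was that of unc-23, a BAG-domain co-chaperone gene (-0.92 ± 0.15, 8.48e-04). The hsp-70 call in males ended after quantile normalization (adjusted p = 0.11) and median centring (0.134). In hermaphrodites hsp-70 changed by 1.09 ± 0.34 (adjusted p = 0.0586; 0.0106 with a replicate block).

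Of 13 tested regulators 1 rose in hermaphrodites, smk-1, a cofactor gene of DAF-16 (0.61 ± 0.13, SE; adjusted p = 0.0085). In males 4 rose, of which the insulin pathway kinase genes age-1 (0.88 ± 0.17, adjusted p = 0.0023) and akt-1 (0.76 ± 0.16, 0.00394) and smk-1 (0.56 ± 0.13, 0.00731) were largest, while 2 rose after median centring and 8 with a replicate block, which called 3 in hermaphrodites. Of all probe sets 5.72% were higher in hermaphrodites and 19% in males. The list median was 0.21 in hermaphrodites against 0.09 for all, and 0.38 in males against 0.23. The response of age-1 differed between the sexes (1.01 ± 0.24, adjusted p = 0.0326), and not after median centring (0.0636), quantile normalization (0.0685) or scaling on hybridization controls (0.0591). The heat shock factor gene hsf-1 changed by -0.39 ± 0.27 in hermaphrodites (adjusted p = 0.403) and by 0.75 ± 0.27 in males (adjusted p = 0.054; 0.0225 with a replicate block). Its responses differed by 1.14 ± 0.38 (adjusted p = 0.0972; 0.0434 with the block). The FOXO gene daf-16 changed by 0.14 ± 0.15 in hermaphrodites (adjusted p = 0.63) and 0.38 ± 0.15 in males (adjusted p = 0.0861; 0.0163 with the block and 0.0334 on hybridization controls). The insulin receptor gene daf-2 did not pass the filter. In fed worms hsf-1 was lower in males by -1.72 ± 0.27 (adjusted p = 7.97e-05).

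Of 12 other DAF-16 targets 8 rose and none fell in hermaphrodites (5 rose after median centring), with a median of 0.94 against 0.09 for all probe sets. In males 3 rose and none fell, with a median of 0.36 against 0.23 for all (1 fell after median centring or with a replicate block, and 2 after quantile normalization). Of all probe sets 5.72% were higher in hermaphrodites and 19% in males, and the male count of 3 of 12 lay near that share. This list was chosen with earlier results of these data known, so its counts and medians are not free of that choice. Beside hsp-12.6 and hsp-12.3, the largest rises in hermaphrodites were aqp-1 (3.75 ± 0.29, SE; adjusted p = 3.23e-06), far-7, which encodes a lipid-binding protein (3.57 ± 0.20, 3.00e-07) and the lysosomal lipase gene lipl-4 (2.72 ± 0.38, 4.32e-04). In males they were far-7 (3.18 ± 0.20, 7.91e-07), aqp-1 (2.32 ± 0.29, 1.13e-04) and nnt-1 (1.11 ± 0.23, 0.00366). The response of 1 of the 12, the superoxide dismutase gene sod-3, differed between the sexes (-1.51 ± 0.36, adjusted p = 0.032), and 6 did with a replicate block. In hermaphrodites the list median of 0.94 lay close to the median change of the 9 members, 0.92. In males these medians were 0.36 and 0.99, and the members were not tested against the list. The highest members in hermaphrodites, hsp-12.6 and hsp-12.3, stood well above both medians, with sizes that depend on the floor.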

How the data were processed

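Per the submitters' processing notes the arrays were processed with MAS5, and the deposited values are log2 signals of the authors, 1 array per sample. The 2% trimmed mean of the signal was 500.1 to 500.2 on every array, so arrays share a scale. RNA (250 ng) was labelled with 16 h of in vitro transcription, per the labels' protocols. The values were used as deposited. Of 22625 probe sets, 77 controls were left out, and of the rest 20766 had 1 gene in the array's annotation, 887 several and 895 none. Names were updated through the gene table of assembly WBcel235, used for names and gene order. Probe sets of several HSP-16 genes were left unnamed. The probe sets of hsp-25 and hsp-43 and the main one of sip-1 are of the array's type that can match several transcripts.

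Group means of the 12 arrays were fitted with limma 3.58.1 in R 4.3.3 (eBayes with a trend, 12.23 total degrees of freedom), with 5 two-sided contrasts, each adjusted over 15913 probe sets. Alternatives were 2 pseudocounts, 2 filters, 3 scalings, no trend, array weights, only the compared arrays, a replicate block and leaving out each array. Named genes were the 9 members, at most 3 called genes per list and direction, hsf-1, daf-16, daf-2, hsp-70, vit-2 and lov-1, and the 3 genes most like each member called for fasting. Neighbouring genes, and Y55F3BR.6 and hsp-16.21 among them, were taken by position or family. The members and lists were chosen with earlier results of these data known. The labels call the samples biological replicates from 3 independent experiments, and the number of arrays limits precision.

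Arrays with the same replicate number deviated together between fed and fasted worms (r of deviations from group means 0.189, 0.129 and 0.259 in hermaphrodites and 0.157, 0.119 and 0.274 in males). Between the sexes r was 0.0525 to 0.204. Promoter motifs were not analysed here. Python 3.11.15 with pandas 2.3.3, numpy 2.4.6, scipy 1.17.1 and matplotlib 3.10.9 made the tables and figures.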

Additional observations from a re-analysis of the deposited data

Results flagged for a closer look

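The fasting response of hsp-12.3 differed between the sexes by -2.72 ± 0.34 on the log2 scale (SE, male minus hermaphrodite; limma adjusted p = 0.00183), with rises of 5.31 in hermaphrodites and 2.60 in males, and it was -1.68 with the pseudocount at the 40th percentile. The response of sip-1 differed by 2.31 ± 0.14 (adjusted p = 2.34e-05), with a rise of 2.23 in males and a change of -0.08 in hermaphrodites, where the signal lay near the top of the scale. Both kept their call in every alternative run.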

How the results depend on the processing

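Of 24 calls of members over the 5 comparisons 20 held in each alternative with a test of that gene. The other 4 were the rise of hsp-16.41 in males, the sex differences of hsp-12.3 and hsp-25 in fasted worms, and that of hsp-43 in fed worms, which alone turned sign (-0.012 after median centring). The replicate block called 4 members in hermaphrodites, with hsp-16.41 added, and changed no other call of a member. Leaving out 1 array gave 3 to 4 called members for fasting in hermaphrodites, 6 to 7 in males, 2 for the difference of the responses, 6 to 7 for sex in fed and 5 to 6 in fasted worms.

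Of 21 results that were not called, 11 turned sign. After median centring hsp-12.2 in hermaphrodites changed by -0.082, the difference of the responses of hsp-16.41 was -0.018, and the sex differences were -0.29 for hsp-16.20 in fed worms and -0.10 for hsp-12.6 and -0.43 for hsp-43 in fasted worms. After quantile normalization sip-1 in hermaphrodites changed by 0.041, the differences of the responses were 0.24 for hsp-12.6 and 0.029 for hsp-43, and hsp-16.20 differed between fed sexes by -0.26. On hybridization controls hsp-12.2 in males changed by 0.057 and its responses differed by 0.0077, and the sex differences were -0.021 for hsp-16.20 in fed and -0.011 for hsp-43 in fasted worms. With array weights the values of hsp-12.2 were 0.065 in males and 0.053 for the difference of the responses. With the pseudocounts the responses of hsp-12.6 differed by 0.31 and 0.40, those of hsp-16.41 by -0.073, and hsp-16.20 between fed sexes by -0.0068. Leaving out 1 array gave ranges of -0.10 to 0.13 for hsp-12.2 in hermaphrodites and -0.15 to 0.18 in males, and for the difference of the responses -0.17 to 0.16 for hsp-12.2, -1.14 to 0.67 for hsp-12.6 and -0.27 to 0.43 for hsp-16.41. The ranges for the sex difference were -0.15 to 1.66 for hsp-12.6 and -0.86 to 1.09 for hsp-16.20 in fed worms and -0.044 to 0.95 for hsp-12.6 in fasted worms. The causes were not tested. The stricter filter left out hsp-12.1. Signals near the bottom of the scale limit hsp-12.1, hsp-12.6, hsp-16.20 and, in fed hermaphrodites, hsp-12.3, whose difference of the responses was -2.87 to -1.68 over all alternatives.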
